A study of Mus musculus with 23 samples.

Results

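Fibroblasts that had received fibroblast RNA (fibroControl, 3 cells) were compared with fibroblasts that had received none (fibroblast, 3 cells), in order to show what goes with transfection by RNA of the cell's own kind. The cells were chosen by their titles, and they are 6 of the 23 single mouse cells of a study of transcriptome-induced phenotype remodeling (TIPeR), in which poly-A RNA of one cell type is put into cells of another. Each cell was hybridized to 1 Affymetrix mouse expression array. The features are the 34945 probe sets, of 45101 in the deposited table, that carry 1 gene symbol, and they represent 18193 genes. The other groups were fibroTIPeR (5 fibroblasts given cardiomyocyte RNA), cardiomyocyte (4 untreated cells), astroTIPeR (6 astrocytes given cardiomyocyte RNA) and astroControl (2 mock-transfected astrocytes).

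All cells were grown in serum-supplemented DMEM, those transfected received poly-A RNA in a lipid reagent, and each was drawn into a glass micropipette before its RNA was amplified and labelled with biotin. No strain, genotype, age or time after transfection is in the sources used here, and nothing says that the cells of a group came from separate cultures or animals, so a p-value here speaks only to how these arrays varied, part of which may come from handling. The untreated fibroblasts did not go through the lipid step, so lipid, carrier RNA and the messages delivered cannot be told apart. A transcript in a fibroControl cell may have been made there or delivered to it, and the arrays cannot tell these apart.

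Fibroblasts are the connective tissue cells that secrete collagens, fibronectin and the enzymes that remodel them. RNA that enters a cell with a lipid is taken up largely by endocytosis, and cells carry sensors for foreign nucleic acid in endosomes and cytosol, such as toll-like receptor 7, whose signal raises interferon-stimulated genes, and Aim2, which assembles an inflammasome on DNA. Messenger RNA delivered to the cytosol can be translated and is removed by the usual decay enzymes. Genes of those steps, of the matrix and of the machinery of translation are therefore described below beside the genes that differed most.

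Levels are on a log2 scale after quantile normalization of all 23 arrays, so that 1 unit is a 2-fold step. The median gene stood at 5.71 and the top 10% of genes above 10.47. Differences are fibroControl minus fibroblast. A gene was called changed at an adjusted p under 0.05 in limma (two-sided, Benjamini-Hochberg over all genes), in a fit of the 6 group means over all 23 cells. The number of arrays limits the precision, and no detection call was available, so the exact size of a change that starts or ends below the median level is uncertain.

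The libraries differed between the groups in ways other than gene content. The array's 18S ribosomal RNA controls stood at 12.08, 11.23 and 11.56 in fibroControl 1 to 3 and at 7.05, 7.25 and 8.06 in fibroblast 1 to 3, with no overlap. Those for the B2 repeat stood at 11.02 to 12.49 in fibroControl cells and at 6.66, 7.34 and 11.02 in fibroblast 1 to 3. For beta-actin, the 3' probe sets exceeded the 5' ones by 2.70 to 4.45 in fibroControl cells and by -1.05 to 0.23 in fibroblasts. For Gapdh the groups overlapped in this measure, at 4.80 to 5.86 in fibroControl cells and 4.54 to 6.44 in fibroblasts. Within these 6 cells the 18S level and the treatment cannot be told apart. With the 18S level as a covariate over all 23 cells, limma called 0 genes (0% of genes tested), 1673 had an unadjusted p under 0.05, and the smallest adjusted p was 0.130. Correlations over genes were 0.789 to 0.847 between fibroControl cells, 0.779 to 0.920 between fibroblasts and 0.708 to 0.782 between a cell of each group. They describe the arrays and are no test.

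**Figure D1:**
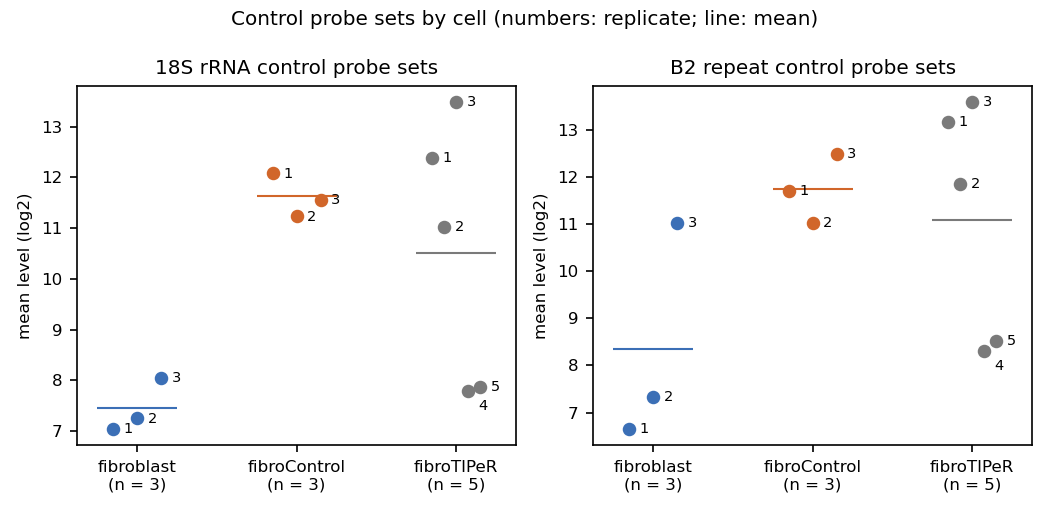
Mean level (log2) of the array's controls for 18S ribosomal RNA (left) and the B2 repeat (right) in each fibroblast, fibroControl and fibroTIPeR cell, with replicate numbers beside the points and a line at the group mean. In the 18S panel the 3 fibroControl cells lie between 11.23 and 12.08 and the 3 fibroblasts between 7.05 and 8.06, and fibroTIPeR cells lie at both levels.

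The label of both groups was checked against defining markers. Of 14 fibroblast markers, 13 were above the median level in at least 1 of the 6 cells, and none was called changed. That bar does not tell cell types apart. Also above it were 6 of 7 cardiomyocyte, 4 of 4 smooth muscle, 4 of 4 endothelial, 4 of 5 astrocyte and 5 of 6 cytotoxic lymphocyte markers, none called. Of macrophage and of epithelial markers 3 of 6 were. The top 10% of levels, in any cell, held 10 fibroblast, 1 cardiomyocyte, 2 smooth muscle and 2 lymphocyte markers. It also held 2 astrocyte, 2 epithelial, 1 macrophage and 0 endothelial markers. Vimentin (Vim), the intermediate filament of mesenchymal cells, was at 14.46, 13.60 and 14.44 in fibroControl 1 to 3 and 14.61, 14.57 and 15.38 in fibroblast 1 to 3. S100a4 lay between 12.12 and 14.34 in the 6 cells, and these were the only 2 fibroblast markers in the top 10% of levels in every one of them. Collagen III (Col3a1) was at 3.95 in fibroControl 1 and 4.73 in fibroblast 2 against 9.24 to 12.68 in the other four cells, and lumican (Lum) was at 2.0 to 5.63, below the median level in all 6. The mean of 7 cardiomyocyte markers was 4.75 to 5.08 in fibroControl cells and 5.30 to 6.91 in fibroblasts. In fibroblast 3 the troponin gene Tnnt2 was at 11.28, Myh6 at 8.48 and Mybpc3 at 8.27, while Tnni3, Myl2, Actc1 and Ryr2 were at 4.12 to 6.25. The mean of 6 macrophage markers was 5.0 to 5.30 and 5.35 to 6.37, and the highest of them, Csf1r, was at 6.57, 10.70 and 7.14 against 11.05, 11.44 and 10.58, while Ptprc, Cd68 and Aif1 were at 2.33 to 6.36 in all 6 cells. Neither list had a member called changed, and their part in the results was not tested. The epithelial genes Krt5 and Epcam stood at 12.36 to 13.05 in all 6 cells, although neither is a fibroblast gene. Krt8, Krt18 and Cdh1 of the same list were at 1.68 to 5.53, below the median level in all 6, and Krt14 was at 4.52 to 7.06. Of the lymphocyte markers, Cd8a stood at 11.23 to 11.93 and Gzmb at 10.27 to 10.84 in all 6 cells. Prf1 was at 4.07 to 4.69 in these cells, Nkg7 at 2.19 to 6.53, Cd3e at 4.86 to 7.29 and Gzma at 5.39 to 10.10.

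Between the groups 283 of 18193 genes were called, which is 1.56% of genes tested. FibroControl cells were higher in 131 (0.72%) and lower in 152 (0.835%). The split moved with the scaling, to 82 higher and 61 lower with each array centred on its median and to 57 and 78 on the values as deposited. In 281 of the called genes the groups did not overlap, as was the case for 23.4% of all genes tested. At an unadjusted p under 0.05 there were 3155 genes. Over all genes the median difference was 0.03, and it was -0.08 on the values as deposited and 0.09 with median centring.

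Most called genes stood below the median level in 1 group and above it in the other. Among the genes that rose, the median level was 4.59 in fibroblasts and 8.99 in fibroControl cells, with a median change of 3.66, and 93 of the 131 went from below to above the median of all genes. Among those that fell, the median level was 8.16 in fibroblasts and 4.1 in fibroControl cells, with a median change of -3.73, and 106 of the 152 went from above to below it. A change of over 4 log2 units was found for 51 genes that rose and 58 that fell. At the other end, 20 genes were called for a change under 1 unit, all with a fibroblast mean among the top 10% of genes. The growth factor-related gene Hdgfl2, for example, was at 14.88, 14.91 and 14.95 in fibroControl cells and 14.54, 14.46 and 13.83 in fibroblasts, a rise of 0.64 (SE 0.11, adjusted p = 0.00912).

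**Figure D2:**
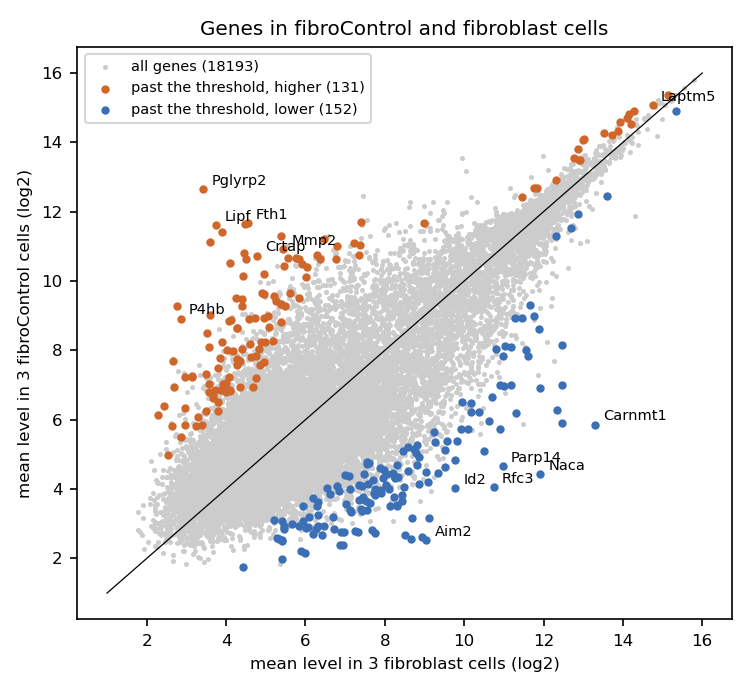
Mean level (log2) of 18193 genes in the 3 fibroblast cells (horizontal) and the 3 fibroControl cells (vertical), with 131 genes called higher in orange, 152 called lower in blue and a line of equal level. Most called genes lie far from the line at low levels of 1 group, and a band of small changes was called at the highest levels.

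Among the largest rises were secreted proteins. Pglyrp2, which cleaves bacterial peptidoglycan, stood at 12.29, 12.97 and 12.67 in fibroControl 1 to 3 and at 3.76, 4.30 and 2.18 in fibroblast 1 to 3. The difference was 9.23 (SE 1.46, 95% interval 6.24 to 12.22, adjusted p = 0.00872). Gastric lipase (Lipf), which digests fat in the stomach, was at 12.27, 11.57 and 11.04 against 5.6, 2.54 and 3.13, a rise of 7.87 (SE 1.36, adjusted p = 0.00950). In both genes every fibroControl cell was above every fibroblast by more than 5 units. Neither is a usual product of fibroblasts, and each was measured by 1 probe set.

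Several intracellular genes rose as far. Noc4l, a nucleolar protein of small ribosomal subunit assembly, was at 11.57, 11.31 and 11.37 against 4.01, 3.62 and 4.04 (7.52, SE 1.39, adjusted p = 0.0111). Arhgap18, a regulator of the actin cytoskeleton, was at 12.04, 11.60 and 11.26 against 4.52, 4.97 and 3.95 (7.16, SE 1.21, adjusted p = 0.00912). Within each group these cells lay close together. Another probe set of Noc4l and of Arhgap18 had the opposite sign. Ferritin heavy chain (Fth1), which stores iron and is abundant in most cells, was at 10.97, 11.79 and 12.28 against 4.31, 3.51 and 5.82 (7.14, SE 1.05, adjusted p = 0.00512). Its other probe set differed by 1.52 in the same direction and was not called.

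Proteins that make or modify matrix were also among the 20 largest rises. P4hb, the protein disulfide isomerase that is also a subunit of collagen prolyl 4-hydroxylase, was at 9.07, 8.91 and 8.77 against 2.45, 2.06 and 4.04. Crtap, part of the collagen prolyl 3-hydroxylase complex, was at 9.95, 11.12 and 11.12 against 4.27, 5.20 and 4.85 (5.96, SE 1.10, adjusted p = 0.0111). Matrix Gla protein (Mgp), an inhibitor of calcification, was at 6.88, 10.84 and 12.68 against 3.96, 4.61 and 4.74. Fibroblasts lay within 1 unit of each other in Crtap and Mgp, while fibroControl 1 was more than 3 units below the other fibroControl cells in Mgp. The TGF-beta co-receptor betaglycan (Tgfbr3) was at 10.59, 9.44 and 11.88 against 4.45, 3.13 and 5.94 (6.13, SE 1.30, adjusted p = 0.0193).

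The other large rises covered many functions. They were the mitotic kinase Melk (6.43), the transcription factor relative Gtf2ird2 (6.53), the Ras GTPase-activating protein Rasal3 (6.36), Fam120c (5.92), the noncoding transcript A630012P03Rik (5.43), the vesicle fusion protein Napb (5.25), the adaptor subunit Ap3m2 (5.24), Ubxn6 (5.12) and the ubiquitin ligase Herc2 (5.08). Other probe sets of Rasal3, Fam120c, Napb, Ap3m2 and Herc2 differed by -1.18 to 0.97, and none of them was called. Melk had the widest spread among fibroblasts, which stood at 2.66, 2.54 and 7.10. Over the 20 largest rises fibroControl cells ranged from 6.88 to 13.38 and fibroblasts from 2.06 to 7.10.

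The largest fall was in Naca, the alpha subunit of the complex that binds nascent chains at the ribosome. It stood at 5.88, 3.62 and 3.82 in fibroControl 1 to 3 and at 11.11, 10.22 and 14.43 in fibroblast 1 to 3, a difference of -7.48 (SE 1.21, 95% interval -9.96 to -5.0, adjusted p = 0.00872). Its second probe set was at 6.64, 4.52 and 3.99 against 4.70, 5.92 and 6.41, where the groups overlapped. Carnmt1, which methylates carnosine, was at 5.12, 6.72 and 5.74 against 13.43, 12.21 and 14.26 (-7.44, SE 1.27, adjusted p = 0.00912), and its other probe set differed by 2.27 in the opposite direction. Dnajc21, a J-protein of ribosome assembly, was at 6.71, 5.66 and 5.39 against 11.81, 10.82 and 14.75 (-6.54, SE 1.12, adjusted p = 0.00912). In Naca and Dnajc21 fibroblast 3 was the highest cell, by more than 2 units.

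Rfc3, a subunit of the clamp loader of DNA replication, was at 4.6, 5.20 and 2.35 against 11.04, 9.09 and 12.10 (-6.69, SE 1.23, adjusted p = 0.0111). Id2, an inhibitor of basic helix-loop-helix transcription factors, was at 4.39, 4.66 and 3.02 against 8.51, 8.98 and 11.84 (-5.75, SE 1.03, adjusted p = 0.0111). Other probe sets of Id2 differed by 1.52 and 1.97 in the opposite direction, neither of them called. Eif2b4, a subunit of the exchange factor that recharges eIF2 for translation, was at 5.12, 7.37 and 8.29 against 12.02, 11.84 and 11.89 (-4.99, SE 0.99, adjusted p = 0.0147). The protein O-mannosyltransferase Pomt2 was at 7.0, 6.01 and 5.86 against 12.23, 10.86 and 13.95 (-6.05, SE 1.17, adjusted p = 0.0143).

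Several of the large falls, picked out after their values were seen, had a like pattern over the cells. Aim2, Gzmd, Dmp1, Adamtsl1, C1galt1, Gm6377 and 1500004A13Rik were lowest in fibroblast 1 and highest in fibroblast 3, and all their fibroControl values lay between 2.0 and 4.07. Aim2, the cytosolic DNA sensor, was at 7.26, 9.14 and 10.72 in fibroblast 1 to 3, and the bone matrix phosphoprotein Dmp1 at 6.87, 8.63 and 10.02. The glycosyltransferase C1galt1 was at 6.15, 8.0 and 9.13. The remaining large falls were the reductase Nqo2 (-5.40), the B-cell lectin Cd22 (-5.17), Serpina11 (-5.13), the myogenic factor Myf6 (-4.93) and the transcript 4930581F22Rik (-5.46).

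**Figure D3:**
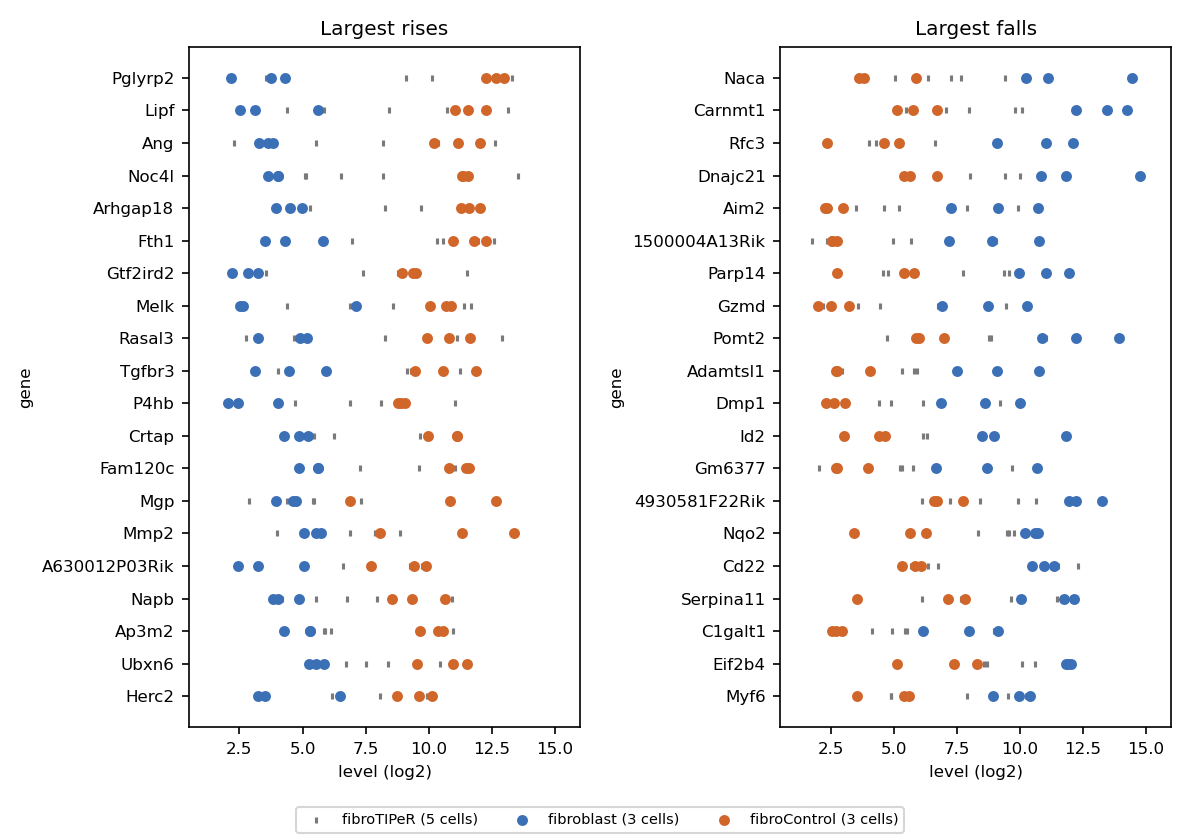
Level (log2) in each fibroblast, fibroControl and fibroTIPeR cell for the 20 genes with the largest called rises (left) and falls (right), 1 row a gene. Fibroblast and fibroControl points do not overlap in any row, a condition of the choice, whereas fibroTIPeR cells spread over both levels.

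How far the calls rested on single cells was followed by leaving out each of the 6 cells in turn. Between 42 and 144 genes were called, 42 without fibroblast 2, 67 without fibroblast 3, 85 without fibroControl 1, 134 without fibroControl 2 and without fibroblast 1, and 144 without fibroControl 3. In all 6 of these fits 18 genes were called. The 9 that rose were Pglyrp2, Lipf, Noc4l, Arhgap18, Fth1, Crtap, Fam120c, Sprr2h and Hdgfl2. The 9 that fell were Naca, Carnmt1, Rfc3, Dnajc21, Id2, S100g, Armcx4, Ube2d2b and Ripply2. Of those not yet described, the cornified envelope protein gene Sprr2h was at 11.05, 11.13 and 10.90 against 7.94, 7.29 and 6.89 (3.65, SE 0.66, adjusted p = 0.0111). Its only probe set is of an Affymetrix type shared between transcripts. The calcium-binding protein gene S100g was at 4.50, 4.78 and 3.35 against 9.42, 9.23 and 8.63 (-4.89, SE 0.93, adjusted p = 0.0140). Ripply2, a repressor in somite formation, fell within low levels, from 4.97 to 5.65 in fibroblasts down to 2.18 to 3.02. A test of a change beyond 2-fold left 7 genes, of which Pglyrp2, Fth1, Lipf and Arhgap18 rose and Naca, Carnmt1 and Dnajc21 fell. Of the 20 largest rises, 7 were called in all 6 fits and 2, Rasal3 and A630012P03Rik, in none. Of the 20 largest falls, 5 were called in all and 2, Cd22 and Myf6, in none.

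Upstream sequences of 4 genes are shown so that changes called without each of the 6 cells in turn, or in several probe sets, can be read beside the DNA before the gene. Crtap and Igfbp4 rose, and Naca and Rfc3 fell. Each is the 250 bases before the transcription start that RefSeq lists first (GRCm38.p6), 5′ to 3′ on the gene's strand. Capitals mark matches, on either strand, to a GC box (spelled GGGCGG), to the box named for its letters CCAAT, or to a TATA box (spelled TATAAA), and none of these motifs overlaps another in the windows shown. The positions are chr11:99040994-99041243 for Igfbp4 (plus strand), chr9:114390713-114390962 for Crtap (minus strand), chr10:128035096-128035345 for Naca (plus strand) and chr5:151651209-151651458 for Rfc3 (minus strand).
Igfbp4: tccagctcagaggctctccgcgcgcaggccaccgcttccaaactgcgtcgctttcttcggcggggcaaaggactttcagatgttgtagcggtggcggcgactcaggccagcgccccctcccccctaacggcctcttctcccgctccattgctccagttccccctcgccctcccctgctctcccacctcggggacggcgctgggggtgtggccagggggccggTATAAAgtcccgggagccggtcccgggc
Crtap: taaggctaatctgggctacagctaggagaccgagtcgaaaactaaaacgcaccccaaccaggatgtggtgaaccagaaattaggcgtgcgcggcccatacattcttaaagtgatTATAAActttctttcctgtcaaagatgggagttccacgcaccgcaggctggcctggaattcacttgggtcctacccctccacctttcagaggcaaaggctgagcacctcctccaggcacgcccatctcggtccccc
Naca: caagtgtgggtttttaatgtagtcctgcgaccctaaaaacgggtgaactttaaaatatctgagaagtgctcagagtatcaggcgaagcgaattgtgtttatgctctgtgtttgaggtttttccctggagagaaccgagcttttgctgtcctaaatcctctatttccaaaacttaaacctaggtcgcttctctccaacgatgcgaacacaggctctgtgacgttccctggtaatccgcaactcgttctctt
Rfc3: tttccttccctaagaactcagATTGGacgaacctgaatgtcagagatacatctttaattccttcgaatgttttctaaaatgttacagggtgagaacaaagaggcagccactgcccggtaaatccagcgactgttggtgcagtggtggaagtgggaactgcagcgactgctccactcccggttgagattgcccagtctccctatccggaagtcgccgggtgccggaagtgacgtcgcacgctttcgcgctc
The Igfbp4 and Crtap windows each held 1 match to the TATA box letters, at unlike distances from the start. The Rfc3 window held 1 match to the CCAAT box letters, and none of these letters were in the Naca window. Distance from the start was not used in finding matches. RefSeq windows were found for 106 of the genes that rose, 124 of those that fell and 14452 of all genes tested. A GC box was in 56.6%, 49.2% and 49.9% of these sets in that order, a CCAAT box in 38.7%, 41.9% and 35.7%, and a TATA box in 9.43%, 10.5% and 9.02%. These shares, like the sequences shown, are for the 250 bases before the start and are descriptions.

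Many genes are measured by several probe sets, and all 34945 were fitted to see whether they agreed. In that fit 479 probe sets were called (1.37% of probe sets tested), 218 higher and 261 lower, from 457 genes. In 473 of them the groups did not overlap, as in 22.7% of all probe sets tested. Of the 283 genes called above, 166 had other probe sets, 311 in all. Of these, 164 (52.7%) had the sign of the called probe set and 15 were called in its direction. For all genes with several probe sets that share was 52.0%. In 94 of the 166 genes at least 1 other probe set had the opposite sign.

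In 14 genes at least 2 probe sets were called in the same direction. Probe sets of a gene read the same RNA and can overlap in target, so they are not replicates. Insulin-like growth factor binding protein 4 (Igfbp4), which restrains IGF signalling in connective tissue, had 4 of 6 called, with rises of 4.24 to 6.96. Its probe set with the largest rise stood at 9.72, 11.96 and 13.22 in fibroControl 1 to 3 and at 4.99, 4.61 and 4.43 in fibroblast 1 to 3 (SE 1.18, adjusted p = 0.0122 in limma over all probe sets). In each of the 4 called probe sets fibroControl 1 was the lowest fibroControl cell. The gelatinase Mmp2, which degrades denatured collagen and type IV collagen, had both probe sets called. These were at 8.06, 11.30 and 13.38 against 5.72, 5.53 and 5.05, and at 7.0, 11.19 and 12.83 against 4.86, 4.97 and 4.37, and the second rise was 5.61 (SE 1.20). FibroControl 1 was again the lowest of its group.

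Serf2, a small protein that promotes amyloid aggregation, had 4 of 5 probe sets called, with rises of 4.12 to 5.22. All 4 are of the Affymetrix type that can bind related transcripts, and the other probe set differed by 0.02, not called. The called probe set used for the gene was at 11.24, 11.17 and 11.21 against 6.75, 6.69 and 5.96 (4.74, SE 0.98). Ckap4, a membrane protein of the rough endoplasmic reticulum, had 3 of 4 called, with 4.6, 4.79 and 6.61, while the one brightest over all 23 cells, used for the gene, was not called (3.85). Of 5 probe sets of the regulatory subunit of protein kinase A Prkar1b, 2 rose, by 4.47 and 6.08. The integrin subunit Itgb5 rose in 2 of 4 (4.23 and 4.66), the lipoprotein receptor chaperone Lrpap1 in 2 of 4 (3.35 and 5.04) and the deadenylase subunit Cnot2 in 2 of 6 (2.50 and 2.94), while 2 others of Cnot2 were at -1.85 and -1.68, not called. For Itgb5 and Lrpap1 the brightest probe set was among the top 10% of levels in both groups and was not called. The class I histocompatibility gene H2-D1 had 2 of 9 called (5.58 and 6.02); both are of the Affymetrix type that can bind related transcripts, and class I genes are near-identical, so the gene is uncertain.

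On the falling side, Rfc3 had both probe sets called (-6.69 and -2.53), the second at 2.91, 2.31 and 2.77 against 3.94, 6.16 and 5.46. The muscle gene triadin (Trdn), which holds calcium stores and release channels together, had 2 of 6 called (-4.80 and -3.10). The glycine receptor subunit Glra3 fell in both of its probe sets (-4.12 and -3.12), the thioesterase Them5 in 2 of 3 (-3.11 and -3.48), and granzyme D (Gzmd) in both (-6.08 and -6.20). Granzyme genes of this cluster are near-identical, and 1 of the Gzmd probe sets is of the cross-binding type.

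In 3 genes probe sets were called in opposite directions. Angiogenin (Ang), a secreted ribonuclease, was at 12.02, 11.16 and 10.20 against 3.65, 3.84 and 3.26 on the probe set used for the gene (7.54, SE 1.45), and at 4.86, 2.11 and 3.20 against 7.03, 8.80 and 9.69 on another (-5.12, SE 1.10). Topoisomerase I (Top1) fell by 2.78 on 1 probe set and rose by 4.40 on another. The zinc finger repressor Zbtb20 was -3.67 on 1 of 9 and 3.49 on another. For these genes a direction holds only for the probe set named with it.

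**Figure D4:**
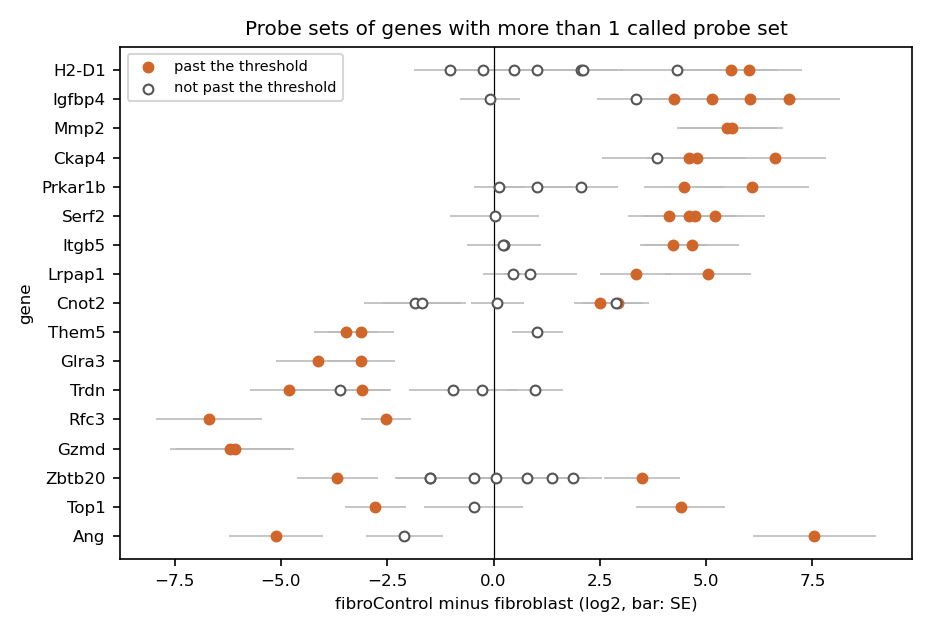
Difference fibroControl minus fibroblast (log2, bars SE) for every probe set of the 17 genes with more than 1 called probe set, filled where called and open where not. In the 14 upper genes the filled points lie on 1 side of 0, and in Zbtb20, Top1 and Ang they lie on both.

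Gene lists are described by their counts beside the 1.56% of all genes called, and a list of this size holds few calls at that share. The lists were chosen with earlier results of these data known, so the share called in any list below is no independent evidence. Of 41 genes of fibroblast identity and matrix, Mmp2 and Col6a3 rose and none fell (4.88% called), and 39 did not pass. Without fibroControl 3 or without fibroblast 2, the list had 0 calls in limma. The list's median difference was 0.85, against 0.03 for all genes, and 27 members were positive, beside 51.1% of all genes. Type VI collagen alpha 3 (Col6a3), a microfibril collagen, was at 9.45, 7.49 and 11.06 against 4.27, 3.95 and 7.95, so the groups overlapped (3.94, SE 0.95, adjusted p = 0.0357). Fibronectin (Fn1) was at 8.73, 8.63 and 10.28 against 5.72, 6.07 and 5.05 (3.60, SE 1.04) and was not called (adjusted p = 0.0719). Collagen I (Col1a1) was at 7.61, 10.52 and 10.60 against 7.25, 7.04 and 9.69, with overlap. FibroControl 1 was the lowest of its group in Col1a1, Col1a2 and Col3a1, and fibroblast 3 the highest of its own.

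In the growth factor and TGF-beta list of 45 genes, Tgfbr3 and Igfbp4 rose and Id2 fell, with a median of 0.24. In the actin and adhesion list of 37, Arhgap18 rose alone (median 0.54). None of 14 smooth muscle and pericyte genes rose and 1 fell, the G-protein regulator Rgs5 at 4.86, 7.93 and 5.84 against 10.73, 9.39 and 10.97.

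Sensors of foreign nucleic acid were split. This list, too, was chosen with earlier results known, so its share called is no independent evidence. Of 32 genes, 2 rose, 2 fell and 28 did not pass (12.5% called, beside 1.56% of all genes, median -0.25). None of the 4 was called in limma without fibroControl 3, without fibroblast 2 or without fibroblast 3, and 4 members were called without fibroControl 2. Toll-like receptor 7 (Tlr7), the endosomal sensor of single-stranded RNA, was at 3.22, 3.42 and 2.18 against 5.12, 6.42 and 7.89 (-3.53, SE 0.74, adjusted p = 0.0193), with fibroControl cells below the median level of all genes. Aim2 fell, as given above. The inflammasome adaptor Pycard was at 8.86, 6.68 and 7.54 against 1.76, 3.25 and 2.95 (5.04, SE 1.15, adjusted p = 0.0275), with 2 of its 3 probe sets of the opposite sign. The Aim2-like gene Ifi203 was at 10.38, 10.35 and 10.76 against 6.27, 5.73 and 5.74 (4.58, SE 0.99, adjusted p = 0.0204). Of 47 interferon-stimulated genes, none rose and 1 fell (2.13% called, near the share of all genes, median -0.08). It was Parp14, a mono-ADP-ribosyltransferase, at 5.40, 2.76 and 5.80 against 11.01, 9.95 and 11.95 (-6.32, SE 1.30, adjusted p = 0.0173). None of 38 NF-kappa-B and inflammatory genes was called (median -0.12).

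Uptake and degradation pathways had 5 genes called in 58, all higher (8.62%, beside 0.72% of all genes called higher, median 0.22). Leaving out 1 cell left 1 or 2 calls in the list, which was also chosen with earlier results known. Cystatin C (Cst3), a secreted inhibitor of lysosomal cysteine proteases, was at 6.68, 9.06 and 9.0 against 3.51, 4.73 and 3.42 (4.36, SE 0.87, adjusted p = 0.0148). The autophagosome protein Gabarap was at 9.52, 10.27 and 10.59 against 5.34, 5.92 and 6.78 (4.11, SE 1.08, adjusted p = 0.0482). The autophagy receptor Sqstm1 rose by 3.23, cathepsin Z (Ctsz) by 2.44 and the lysosomal protein Laptm5 by 0.33, at levels over 14. Gabarap, Sqstm1 and Ctsz were not called in any of the fits that left out 1 cell. Averaging the probe sets of Laptm5 gave -0.30 instead. In the RNA decay list of 53 genes, the scavenger decapping enzyme Dcps rose at 8.56, 6.38 and 5.66 against 4.31, 4.21 and 3.74 (2.78, SE 0.71, adjusted p = 0.0433), beside Ang on its brightest probe set.

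The machinery of translation is given gene by gene. None of 45 cytosolic ribosomal protein genes passed, while 34 were positive, beside 51.1% of all genes, and the median was 1.33. The mean over that list was 9.27 to 9.45 in fibroControl cells and 7.27 to 8.65 in fibroblasts, and the groups did not overlap. Of the 39 lists, 8 had a mean that was higher in every fibroControl cell than in every fibroblast, such as the splicing, proteasome and housekeeping lists, and 5 one that was lower, such as the astrocyte and cardiomyocyte lists. The acidic ribosomal protein gene Rplp2 was at 10.61, 10.16 and 10.64 against 4.52, 6.46 and 6.27 (4.72, SE 1.28, adjusted p = 0.0565), and Rps3 at 9.87, 10.03 and 9.69 against 5.10, 5.49 and 6.23 (adjusted p = 0.0567). Of 38 translation factors and nascent chain chaperones, Naca alone fell (median 0.18). Of 53 ribosome assembly genes, Noc4l rose and Dnajc21 fell (median 0.29).

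Oxidative phosphorylation showed the same form. None of 76 subunit genes passed, 57 were positive and the median was 0.63. The list's mean was 8.29 to 8.73 in fibroControl cells and 7.28 to 7.89 in fibroblasts, with no overlap. The complex I subunits Ndufs3 (8.42, 7.79 and 6.80 against 3.85, 4.91 and 4.12, adjusted p = 0.0504) and Ndufb6 (4.91, adjusted p = 0.0554) were nearest the threshold. The 18S level moved with the group for both lists, and its part was not tested beyond the covariate fit above.

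**Figure D5:**
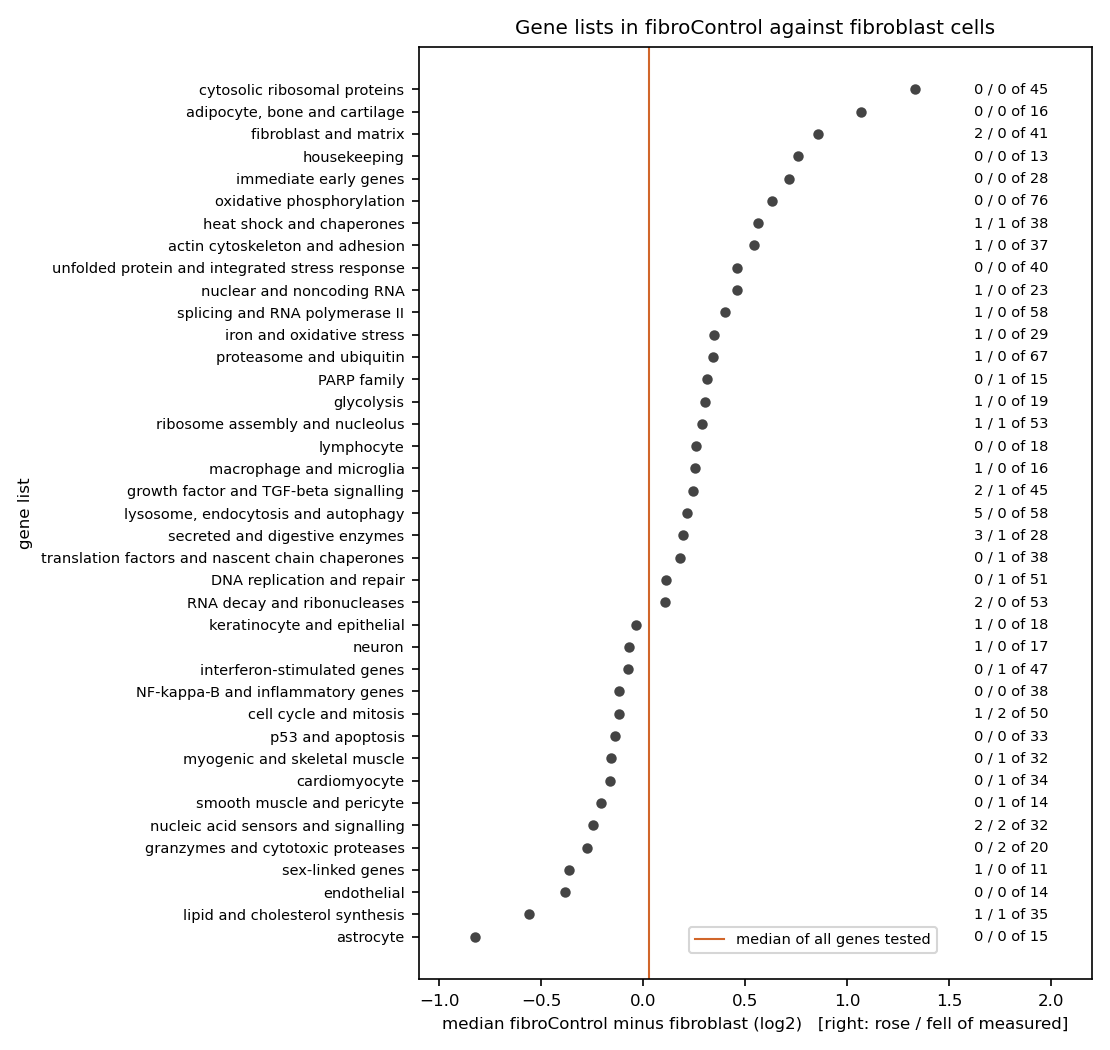
Median difference fibroControl minus fibroblast (log2) of each of 39 gene lists, with the number of members that rose, fell and were measured at the right and a line at the median of all genes (0.03). Ribosomal proteins lie highest at 1.33 and astrocyte genes lowest at -0.82, and neither list had a called member.

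Stress and proliferation genes changed singly. Of 38 heat shock and chaperone genes, 1 rose and 1 fell, and leaving out 1 cell left 0 to 2 calls in the list. The inducible Hsp70 gene Hspa1a rose at 12.73, 10.41 and 8.77 against 6.90, 6.44 and 5.74 (4.28, SE 1.08, adjusted p = 0.0412). Its close relative Hspa1b differed by -2.01, in the opposite direction, and was not called. The mitochondrial co-chaperonin Hspe1 fell at 6.41, 8.94 and 8.95 against 11.07, 11.38 and 11.07 (-3.07, SE 0.74, adjusted p = 0.0337). Averaged over its probe sets, Hspe1 differed by 0.28 in the other direction. None of 40 unfolded protein and integrated stress genes and none of 33 p53 and apoptosis genes passed (medians 0.46 and -0.14). None of 28 immediate early genes passed (median 0.72), and the levels of Fos in fibroControl cells were 5.04, 7.4 and 12.21 against 4.61 to 5.30 in fibroblasts. Of 50 cell cycle genes, Melk rose and Cdc20 and Cdc25c fell (median -0.12). The activator of the anaphase-promoting complex Cdc20 was at 11.45, 12.23 and 12.09 against 13.00, 12.74 and 12.84 (-0.94, SE 0.22, adjusted p = 0.0309), and by 0.18 in the other direction when its probe sets were averaged. Of 51 replication and repair genes Rfc3 alone fell (median 0.11).

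Lists of genes foreign to fibroblasts came next. Of 28 secreted and digestive enzymes, Pglyrp2, Lipf and, on its brightest probe set, Ang rose and the pancreatic lipase relative Pnliprp2 fell (-2.89, within levels of 2.77 to 5.98). The list's percentage called was 14.3%, beside 1.56% of all genes, but it was written with these genes known and is no independent evidence of their change. Of 20 granzymes and cytotoxic proteases, Gzmd and Gzmn fell, the latter at 4.28, 3.62 and 2.35 against 8.58, 7.86 and 5.78. Of 34 cardiomyocyte genes Trdn fell and of 32 skeletal muscle genes Myf6 fell (medians -0.16 and -0.16). None of 15 astrocyte genes, 14 endothelial genes or 18 lymphocyte genes passed, with medians of -0.82, -0.39 and 0.26.

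The remaining lists had at most 2 called members each. Eno2, an enolase of neurons that is in the glycolysis list, rose (2.74, SE 0.63, adjusted p = 0.0290), as did the ubiquitin enzyme Ube2o (3.93), the noncoding RNA Rian (0.49), the X-linked demethylase Kdm6a (2.72) and corneodesmosin (Cdsn, 3.08). The sterol oxidase Msmo1 fell at 4.50, 3.62 and 5.99 against 7.06, 7.59 and 10.28 (-3.60, SE 0.92, adjusted p = 0.0440), in a lipid synthesis list of 35 genes whose median was -0.56 and in which Lipf was the other call. None of 13 housekeeping genes passed (median 0.76), and elongation factor Eef1a1 was at 11.41, 10.96 and 11.51 against 7.0, 6.98 and 8.89 (adjusted p = 0.127). The medians of the adipocyte, bone and cartilage list (1.07, 16 genes, none called) and of the splicing and polymerase list (0.40, 58 genes, Gtf2ird2 alone called) also lay above that of all genes.

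The called genes were then followed into the other groups, as values without a test. For each called gene the midpoint between the group means of fibroControl and fibroblast was used as a mark. Of the 131 genes that rose, fibroTIPeR 1, 2 and 3 were above the midpoint in 84, 75 and 93, and fibroTIPeR 4 and 5 in 15 and 27. Of the 152 that fell, those cells were above it in 32, 40 and 16, and in 69 and 107. FibroTIPeR 1 to 3 therefore lay on the fibroControl side more often than fibroTIPeR 4 and 5. The 18S level moved with this, at 12.38, 11.03 and 13.48 in fibroTIPeR 1 to 3 and 7.80 and 7.88 in fibroTIPeR 4 and 5, and its part was not tested. Pglyrp2 was at 9.08, 13.32, 10.13, 3.56 and 4.38 in fibroTIPeR 1 to 5, and Arhgap18 at 9.68, 12.04, 8.26, 5.30 and 5.07. Ferritin heavy chain was at 12.58, 10.33, 11.96, 6.98 and 10.57, above every fibroblast in all 5 cells.

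Mmp2, Igfbp4 and Mgp were followed in the same way. Mmp2 was at 7.86, 3.98, 8.87, 4.92 and 6.87 in fibroTIPeR 1 to 5, of which 3 values lie above every fibroblast and 2 below, all of them under fibroControl 2 and 3. Igfbp4 was followed on the probe set used for the gene, which rose by 4.24 and is not the one whose values by cell are given above. There it was at 5.70 to 7.26, within or just below the fibroblast values of 5.90 to 7.39. Its other called probe sets were not followed. Mgp was at 2.90 to 7.32. In the same fit fibroTIPeR minus fibroblast was 1.07 for Mmp2 (adjusted p = 0.788) and -0.28 for Igfbp4 (adjusted p = 0.954). FibroTIPeR minus fibroControl was -4.41 for Mmp2 (adjusted p = 0.212), -4.52 for Igfbp4 (adjusted p = 0.0879) and -5.04 for Mgp (adjusted p = 0.0907), so none of the 3 was called different between the RNA-treated groups. For Rfc3 fibroTIPeR minus fibroblast was -5.66 (adjusted p = 0.0464), beside -6.69 for fibroControl minus fibroblast. The 3 fibroblasts are shared by both differences, so these are not independent. In all, 10 genes (0.055% of genes tested) were called between fibroTIPeR and fibroblast and 1 (0.0055%) between fibroTIPeR and fibroControl.

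The astrocyte and cardiomyocyte groups were set against the same midpoints. Of the 20 largest rises, 12 had an astroControl mean and 13 an astroTIPeR mean above the midpoint, and 0 a cardiomyocyte mean. Of the 20 largest falls, 1, 2 and 17 did. Over all called genes the contrast was smaller, since astroControl cells were above the midpoint in 68 and 63 of the 131 rises and in 32 and 48 of the 152 falls, and cardiomyocytes in 20 to 22 of the rises and 66 to 122 of the falls. Pglyrp2 was at 12.63 ± 0.24 (SD, n = 2) in astroControl, 12.97 ± 0.29 (n = 6) in astroTIPeR and 4.47 ± 0.75 (n = 4) in cardiomyocyte cells. Lipf was at 12.64 ± 0.42, 12.74 ± 0.44 and 4.68 ± 1.03 in these groups, and Arhgap18 at 12.25 ± 1.09, 12.02 ± 0.63 and 4.57 ± 1.37. Conversely, Carnmt1 was at 3.92 ± 2.45, 5.85 ± 1.41 and 11.28 ± 2.09, and Naca at 4.51 ± 1.42, 4.86 ± 1.13 and 9.60 ± 1.76. Crtap and Mmp2, named here as examples of the 8 rises below the midpoint in astroControl, were at 5.55 ± 0.33 and 4.66 ± 1.19 in those cells. The astrocyte arrays had lower deposited medians (4.28 to 4.56) than the other arrays (5.05 to 5.58), so levels set across them rest on the quantile normalization. The 18S level was 6.94 to 8.24 in cardiomyocytes and 7.05 to 8.06 in fibroblasts. It was 7.63 to 9.57 in astroTIPeR and 8.17 to 9.09 in astroControl cells, and its part was not tested. Fibroblast 1 to 3 correlated with cardiomyocytes at a mean of 0.862, 0.855 and 0.729, and with other fibroblasts at 0.850, 0.864 and 0.793.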

How the data were processed

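The RNA of 23 single cells, grouped by their titles, was hybridized to Affymetrix mouse arrays. Deposited values were on a log2 scale, as judged from their range. Not given in the sources used here were the authors' summarization, normalization and centring. The number of arrays limits the precision.

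All columns were quantile normalized. Gene symbols came from the platform's annotation, in which 34945 of 45101 probe sets had 1 symbol, 932 had several and 9160 were not listed. Tests left out the 64 control probe sets. For the 9010 genes with several probe sets, the probe set of highest mean in all cells was used. Genes, and separately probe sets, were tested in limma 3.58.1 (R 4.3.3, statmod 1.5.0) with a mean for each of 6 groups, eBayes with trend and Benjamini-Hochberg adjustment at 0.05. Intervals are 95% intervals. Promoters were RefSeq windows of GRCm38.p6, searched in Python 3.11.15. The pipeline was tested on simulated data.

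The members, lists and tests were chosen with earlier results of these data known. Genes are named if they are among the 20 largest called changes in a direction without overlap, were called without each cell in turn (up to 15 a direction), had at least 2 probe sets called in 1 direction (up to 15) or in both, were called members of a list (up to 6, or the 2 with the smallest p) or were fixed cell type markers. Alternatives changed the scaling, the cells in the fit, the spread model, covariates, filters and the choice of probe set. A fit with the replicate number as a block in the compared groups alone was added after seeing the data.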

Additional observations from a re-analysis of the deposited data

Results flagged for a closer look

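Of 46 groups of values that were large enough to look at, 2 had a cell far from the others of its group, and chance alone sets such a cell apart in about 1 in 20 groups. Ap3m2 was at 10.98 in fibroTIPeR 2 and at 5.38 to 6.12 in the other fibroTIPeR cells. C1galt1 was at 8.99 in fibroTIPeR 5 and at 4.12 to 5.51 in the others.

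Controls on the array for 18S ribosomal RNA were not among the genes tested, entered 1 alternative fit as a covariate, and averaged 11.62 in fibroControl cells against 7.45 in fibroblasts.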

How the results depend on the processing

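The fit of 6 group means called 283 genes and 479 probe sets. Counts for genes and then probe sets were 135 and 208 on the values as deposited, 143 (82 higher, 61 lower) and 176 with median centring, 156 and 207 with quantile normalization within each array set, 86 and 61 in a fit of the compared groups alone, 15 and 12 in a fit of the 15 fibroblast and cardiomyocyte arrays, 203 and 322 without trend, 1890 and 2666 with array weights, and 7 and 2 with a 2-fold minimum. With the 18S level as a covariate limma called 0 and 0, with 1673 genes and 3102 probe sets at an unadjusted p under 0.05. Genes above the median level gave 173. Leaving out each cell gave 42 to 144 genes and 64 to 256 probe sets. With a replicate block 163 genes and 238 probe sets were called, or 47 and 19 in the compared groups alone. Deviations of same-numbered cells correlated at 0.017, 0.066 and 0.108, and fibroControl 2 and 3, but not 1, correlated best with their own number, so the numbers were not taken as pairs. Robust eBayes (294 genes, 489 probe sets), the mean of all probe sets (216), the probe set of highest variance (391) and probe sets above the median level (343) stayed within 1.5 times the counts of that fit. Of the 283 genes, 135 were called on the values as deposited, 139 with median centring, 72 in the compared groups alone and 14 in the 15 arrays.

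Of 75 called genes named here, none changed sign under scaling, covariates, spread models or left-out cells. With the mean of probe sets the difference turned to 0.28 for Hspe1, 0.18 for Cdc20 and -0.30 for Laptm5. With the probe set of highest variance it was 1.84 for Nqo2, -0.25 for Hdgfl2, 3.64 for Hspe1, 1.47 for Cdc20 and -0.54 for Laptm5. The cause of these differences was not tested. The fit of compared groups alone has fewer cells, as does that of 15 arrays. With no detection call, the signal over background at low levels is not known.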

Other observations

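Probe sets with several symbols or none were fitted together with those of 1 symbol. Of 10092 such probe sets 125 were called (1.24%), 32 higher and 93 lower, beside 471 of 34945 (1.35%), 213 higher and 258 lower, in the same fit.

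Xist, the noncoding RNA of the inactive X chromosome, was at 10.75 to 11.59 in all 6 mouse cells. The Y-linked genes Eif2s3y, Sry and Zfy2 were at 2.33 to 5.56, below the median level in all 6 cells. Usp9y, also Y-linked, was at 3.54 to 6.14. The Y-linked genes Kdm5d, at 6.14 to 8.51, and Uty, at 12.14 to 12.89, were above the median level in the same cells.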
